A study of Saccharomyces cerevisiae with 6 samples.

Results

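The 10 genes described here are 4 regulators and 6 enzymes of the retrograde response of budding yeast, out of 6212 identifiers on the arrays. They were listed by name and function and chosen by someone who knew earlier results of these same log2 ratios at 2, 4 and 6 h, so the ratios are given as a description and none of them is tested. The regulators were RTG1 (YOL067C), RTG2 (YGL252C), RTG3 (YBL103C) and MKS1 (YNL076W). The enzymes were CIT2 (YCR005C), DLD3 (YEL071W), ACO1 (YLR304C), CIT1 (YNR001C), IDH1 (YNL037C) and IDH2 (YOR136W).

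The cells were of 1 Saccharomyces cerevisiae strain, mmr09-4 in the cml476 background, in which a KanMX4-tetO7 cassette before the YPI1 reading frame lets doxycycline shut the gene off. YPI1 encodes a regulatory subunit of the protein phosphatase 1 catalytic subunit Glc7, and the series title names progression through mitosis as its question. Cultures in YPD, a rich glucose medium, received 100 µg/ml doxycycline in an ethanol and water mix, or the mix alone, for 2, 4 or 6 h. Treated and untreated cells of a time were compared on 2 dye-swapped 2-colour arrays made from 1 RNA pair, so an SD at a time is technical and no time has a biological replicate. Both sides of every ratio carry the tetO7 promoter, and no strain with the native YPI1 promoter was compared, so doxycycline itself may contribute to each ratio. The signal behind each ratio is unknown here, and precision is limited by how few arrays there are.

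The retrograde response is the route by which yeast cells adjust nuclear gene expression to the state of their mitochondria. Rtg2 senses the mitochondrial signal and binds Mks1, an inhibitor that otherwise keeps the paired transcription factors Rtg1 and Rtg3 out of the nucleus. Apart from DLD3, the target enzymes make citrate and carry it through isocitrate to 2-oxoglutarate, the carbon skeleton of glutamate. CIT2, the citrate synthase of peroxisomes, is the classical reporter of the pathway. CIT1, ACO1, IDH1 and IDH2 come under the Rtg proteins when respiration is impaired and under the HAP complex when it is not.

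YPI1 (YFR003C) was far below untreated cells on every array, as labelled. Its log2 ratio went from −4.39 ± 0.48 (SD, 2 technical arrays) at 2 h to −6.30 ± 0.19 at 6 h. The arrays held values for 4250 to 4804 genes. Across genes, the dye-swapped arrays correlated positively at 6 h (r = 0.87) and negatively at 4 h (−0.17) and 2 h (−0.40). These correlations do not give the size of the differences between arrays. The SD across genes was 0.32 and 0.30 at 2 h, 0.28 and 0.22 at 4 h, 0.78 and 0.81 at 6 h. The 4 h and 6 h arrays with treated RNA in Cy5 had r = −0.25 between them, and −0.31 with YPI1 left out. All other pairs of arrays that shared the dye of the treated RNA had a positive r, from 0.22 to 0.58. Between times, arrays of unlike dye had r from −0.50 to 0.04. Per the labels, channel 1 held the treated cells throughout, but they give Cy3 for both channels of replicate 2 of 2 h and do not say how swapped arrays were turned. The deposited sign was kept, with YPI1 below 0 on all 6 arrays. At 6 h the ratio also moved with gene length, with a Spearman correlation of 0.63 across genes, which share their arrays and are not independent. That correlation was −0.29 at 4 h and 0.15 at 2 h.

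The 10 genes had no common direction at 2 h, lay at or slightly below 0 at 4 h, and were all above 0 at 6 h where both arrays measured them. Their median log2 ratio was −0.06 over 9 genes at 2 h, −0.15 over 10 at 4 h and 0.57 over 8 at 6 h. The 2 h median had opposite signs on the single arrays, 0.07 on replicate 1 and −0.19 on replicate 2, and the 6 h median was 0.15 with a curve of ratio on gene length removed from each array. The medians of all genes at those times were −0.01, 0.01 and −0.10. In bulk RNA, fewer cells with a transcript and less transcript per cell cannot be told apart.

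**Figure D1:**
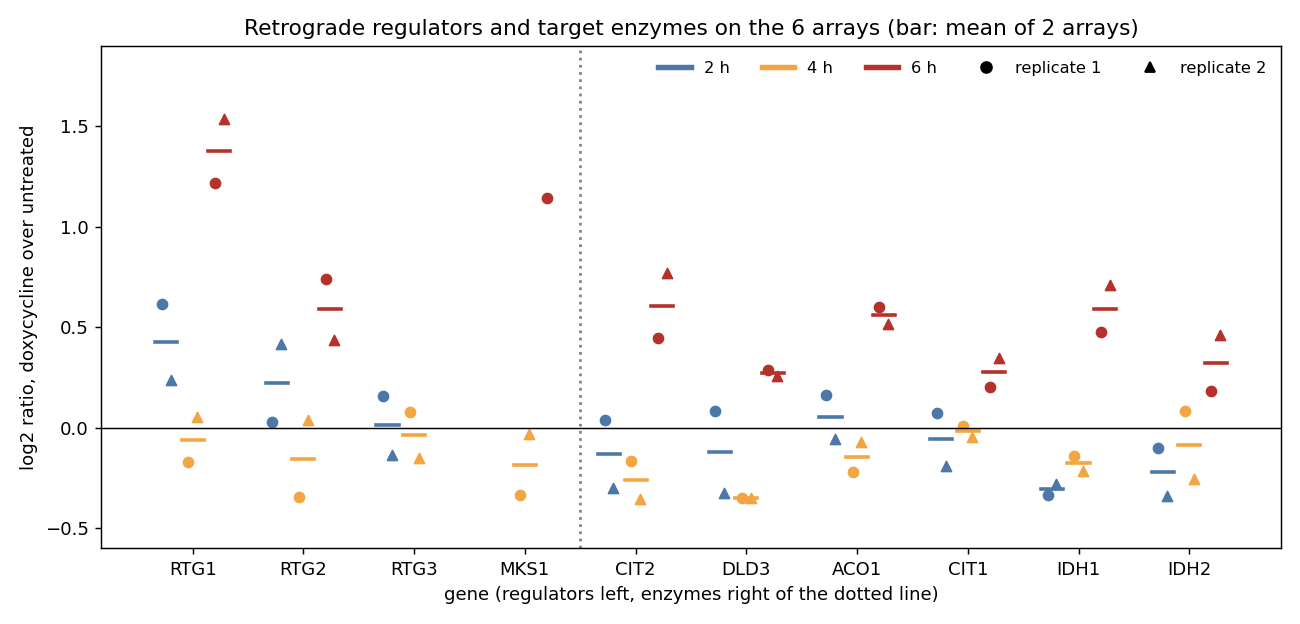
Log2 ratio of doxycycline-treated over untreated cells (vertical axis) for each of the 10 genes (horizontal axis) at 2, 4 and 6 h. Circles and triangles are the 2 arrays of a time and bars their mean. All 6 h points lie above 0, from 0.18 for IDH2 to 1.54 for RTG1, and RTG3 has no point at 6 h and MKS1 none at 2 h and 1 at 6 h.

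At 2 h, 2 of the 9 genes measured on both arrays were above 0 on both, 2 were below on both and 5 had opposite signs. For comparison, among all 4119 genes 16.8% were above 0 on both arrays, 16.3% below on both and 66.5% of opposite signs. At 4 h, 0 of 10 were above 0 on both arrays and 5 were below on both, against 18.1% and 17.5% of 4691 genes. At 6 h, 8 of 8 were above 0 on both arrays, against 39.4% of 4160 genes above and 48.3% below. Because these are the values the genes were chosen with, the counts are read as a description.

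RTG1, which encodes the smaller of the paired transcription factors, had the highest ratio of the group at 2 h and at 6 h. Its log2 ratios were 0.61 and 0.24 on the 2 h arrays, −0.17 and 0.05 at 4 h, then 1.22 and 1.54 at 6 h. Both 2 h arrays and both 6 h arrays were above 0, and those of 4 h lay lower than either and on both sides of 0. The means were 0.43 ± 0.26, −0.06 ± 0.16 and 1.38 ± 0.23, the last being 2.59 times the level of untreated cells.

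RTG1 was the 1 gene of the group past 2-fold at 6 h, meaning a mean log2 ratio of at least 1 in size with 1 sign on both arrays. Over all genes this rule held at 6 h for 9.81% higher (408 of 4160) and 8.08% lower (336), and with the length curve removed for 126 higher and 240 lower. No member passed the rule at 2 or 4 h, where 0% of genes were higher at either time, and 0.0486% (2 h) and 0.064% (4 h) were lower. On the 6 h arrays RTG1 stood at percentiles 94.0 and 95.4 of the genes measured.

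RTG1 is a short gene, and its 6 h value was unlike that of most short genes. Its reading frame spans 534 bp, and the 632 measured genes under 600 bp had a median 6 h log2 ratio of −0.78, with 41 of them above 0. In that class 1 other gene lay at or above RTG1, YFL067W at 1.41, named after its value was seen. Matched genes are, for each gene, the 20 of its own chromosome whose lengths are closest to it. Minus the median of its matched genes, RTG1 had 2.06 and 2.25 on the 6 h arrays.

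The genes beside RTG1 on chromosome XV, named after their values were seen, had lower ratios at 6 h. HST1, a histone deacetylase of the sirtuin family, had log2 ratios of 0.11 and 0.38 on the 6 h arrays. RIB2, an enzyme of riboflavin synthesis, had 0.72 on 1 array of 6 h and no value on the other. Beside other members the direction varied, with genes again named after their values were seen. HXK2 beside RTG2 (0.88 ± 0.46) and MET17 beside ACO1 (0.84 ± 0.40) had higher 6 h means as deposited than these members. STT4, on the other side of ACO1, was lower at 0.18 ± 0.38. The measured genes beside CIT2, CIT1 and IDH1 were also lower than these members.

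RTG2, the sensor of the pathway, was the next regulator with values on all arrays. Its log2 ratios were 0.03 and 0.42 at 2 h, −0.34 and 0.04 at 4 h, then 0.74 and 0.44 at 6 h. The 6 h arrays lay above those of 2 h and 4 h, narrowly so in replicate 2. The 6 h mean was 0.59 ± 0.22, while against matched genes RTG2 had 0.19 on one array and −0.26 on the other.

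RTG3, which encodes the partner of Rtg1, had log2 ratios of 0.16 and −0.13 at 2 h and 0.08 and −0.15 at 4 h, and no value at 6 h. Its arrays thus had opposite signs at both times. On both 2 h arrays RTG1 exceeded RTG3, by 0.45 and 0.37 on the log2 scale. At 4 h the same difference was −0.25 on one array and 0.20 on the other.

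MKS1, the inhibitor, had values on 3 arrays. They were log2 ratios of −0.34 and −0.03 at 4 h and 1.14 on replicate 1 of 6 h, where it stood at percentile 92.4. With a single 6 h array the gene was left out of the 6 h counts. Against matched genes that value was 0.64.

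CIT2 was below 0 on both arrays of 4 h and above 0 on both of 6 h. Its log2 ratios were 0.04 and −0.30 at 2 h, −0.17 and −0.36 at 4 h, then 0.44 and 0.77 at 6 h. The 6 h arrays lay above all 4 earlier ones. The means of −0.13 ± 0.24, −0.26 ± 0.13 and 0.61 ± 0.23 correspond to 1.20 times below untreated cells at 4 h and 1.52 times above at 6 h. Against matched genes CIT2 was below 0 on all 6 arrays, with a mean of −0.20 at 2 h, −0.17 at 4 h and −0.09 at 6 h.

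DLD3, a cytosolic enzyme that oxidises D-2-hydroxyglutarate and makes D-lactate, was the lowest of the group at 4 h. Its log2 ratios were 0.08 and −0.32 at 2 h, −0.35 and −0.35 at 4 h, then 0.29 and 0.26 at 6 h. The 4 h arrays lay below those of 2 h, and those of 6 h above all others, with an SD between arrays of 0.001 at 4 h and 0.021 at 6 h. On replicate 2 of 4 h, DLD3 stood at percentile 3.46 of the genes measured and CIT2 at percentile 3.31. Against matched genes DLD3 was below 0 on all 6 arrays and lowest at 6 h, with a mean of −0.44.

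CIT1, the mitochondrial citrate synthase and paralog of CIT2, had the smallest change from 4 to 6 h. Its log2 ratios were 0.07 and −0.19 at 2 h, 0.01 and −0.05 at 4 h, then 0.20 and 0.35 at 6 h. The 2 h arrays lay on both sides of 0, as did those of 4 h, and the 6 h arrays lay above all of these. CIT2 minus CIT1 on the same array was −0.04 and −0.11 at 2 h, −0.18 and −0.31 at 4 h, then 0.24 and 0.42 at 6 h, so CIT2 had the lower ratio on the first 4 arrays and the higher on the last 2. Relative to matched genes the 6 h difference had the other sign, −0.61. With the length curve removed, CIT2 was the higher at 6 h, at 0.27 against −0.12 for CIT1. The genes lie on chromosomes III and XIV, so their matched genes differ. How far the 2 paralogs share hybridisation signal was not tested.

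ACO1, mitochondrial aconitase, turned in the same way as CIT2 between 4 and 6 h. Its log2 ratios were 0.17 and −0.05 at 2 h, −0.22 and −0.07 at 4 h, then 0.60 and 0.52 at 6 h. Both arrays of 4 h lay below both of 2 h, and both of 6 h above all others. The 6 h mean of 0.56 ± 0.06 is 1.47 times the untreated level. It was 0.90 against matched genes and −0.20 with the length curve removed.

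IDH1 and IDH2 encode the subunits of the NAD-dependent isocitrate dehydrogenase of mitochondria, which makes 2-oxoglutarate. IDH1 had log2 ratios of −0.33 and −0.28 at 2 h, −0.14 and −0.22 at 4 h, then 0.48 and 0.71 at 6 h. IDH2 had −0.10 and −0.34 at 2 h, 0.08 and −0.26 at 4 h, then 0.18 and 0.46 at 6 h. IDH1 was below 0 on all 4 arrays of 2 and 4 h, and both subunits were below 0 on both arrays of 2 h and above on both of 6 h. The subunits differed by 0.30 and 0.25 at 6 h, IDH1 being higher on both arrays. At 2 and 4 h the difference had opposite signs on the 2 arrays, and relative to matched genes at 6 h it was −0.60. With the length curve removed, IDH1 was the higher at 6 h, at 0.69 against 0.38 for IDH2. The genes lie on chromosomes XIV and XV, so their matched genes differ.

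In order of the 6 h mean the genes ran from RTG1 at 1.38 through CIT2 at 0.61, IDH1 at 0.59, RTG2 at 0.59, ACO1 at 0.56, IDH2 at 0.32 and CIT1 at 0.28 to DLD3 at 0.27. RTG1 lay above every other value of the group measured on both arrays. The ranges of CIT2, IDH1, RTG2 and ACO1 overlapped, as did those of IDH2, CIT1 and DLD3, and IDH2 reached into the ranges of CIT2 and RTG2. At 4 h the order ran from CIT1 at −0.02 to DLD3 at −0.35, and at 2 h from RTG1 at 0.43 to IDH1 at −0.31.

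From 4 to 6 h the ratio of each of the 8 genes with all 4 values went up, and both 6 h arrays lay above both 4 h arrays for 8 of 8. Over all genes 34.2% of 4021 did so and 43.0% lay below. The median difference was 0.73 over the 8 genes, from 0.29 for CIT1 to 1.43 for RTG1, against −0.10 over all genes. Both 6 h arrays also lay above both 2 h arrays for 8 of 8, against 30% of 3453 genes with 40.7% below. Between 2 and 4 h the arrays of 3 of 9 genes lay lower without overlap, RTG1, DLD3 and ACO1, and those of IDH1 higher, against 11% and 10.4% of 3856 genes. Relative to matched genes 6 of 8 lay above their 4 h arrays without overlap, against 28.4% of 3810 genes with 29% below, and RTG2 and DLD3 overlapped. On that scale 5 of 8 lay above and 1, DLD3, below their 2 h arrays, against 24.1% and 28.3% of 3291 genes. CIT2, DLD3, ACO1 and IDH1, 4 of the 8, were below 0 on both arrays of 4 h and above on both of 6 h, against 11.6% of 4021 genes.

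Against matched genes the enzymes sat low at 4 h. All 6 enzymes were below their matched genes on both arrays of 4 h, as were 19.2% of all 4446 genes, with means from −0.24 for DLD3 to −0.06 for CIT1. With the length curve removed, CIT1 had a 4 h mean of 0.03, and the other enzymes were between −0.30 and −0.08. Of the 4 regulators, 0 were below on both arrays. At 2 h, CIT2, DLD3, IDH1 and IDH2 were below matched genes on both arrays, against 17.4% of 3918 genes.

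Gene length moved with the 6 h ratios, and the order of the group differed with the scale. The measured genes of 1200 to 1800 bp, the class of RTG2, CIT2, DLD3 and CIT1, had a median 6 h log2 ratio of 0.44 over 986 genes. Those of 600 to 1200 bp, the class of IDH1 and IDH2, had −0.30 over 1464 genes. Against matched genes 5 of the 8 were above 0 on both arrays and 2 below, with 36.3% and 38.0% of 3921 genes. The 5 were RTG1 at 2.15, IDH2 at 1.06, ACO1 at 0.90, CIT1 at 0.52 and IDH1 at 0.46, and the 2 were CIT2 and DLD3. With a length curve removed from each array instead, 5 of 8 means were above 0 and those of ACO1, DLD3 and CIT1 were below. RTG1, IDH1 and IDH2 were the 3 genes above 0 on all 3 scales. The shares of all genes above 0 with the length curve removed, or on all 3 scales, were not counted. These counts therefore describe the 8 genes only. Matched genes share the chromosome as well as a like length, whereas the length curve takes length alone. The parts of gene length and of chromosome in these ratios were not tested.

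**Figure D2:**
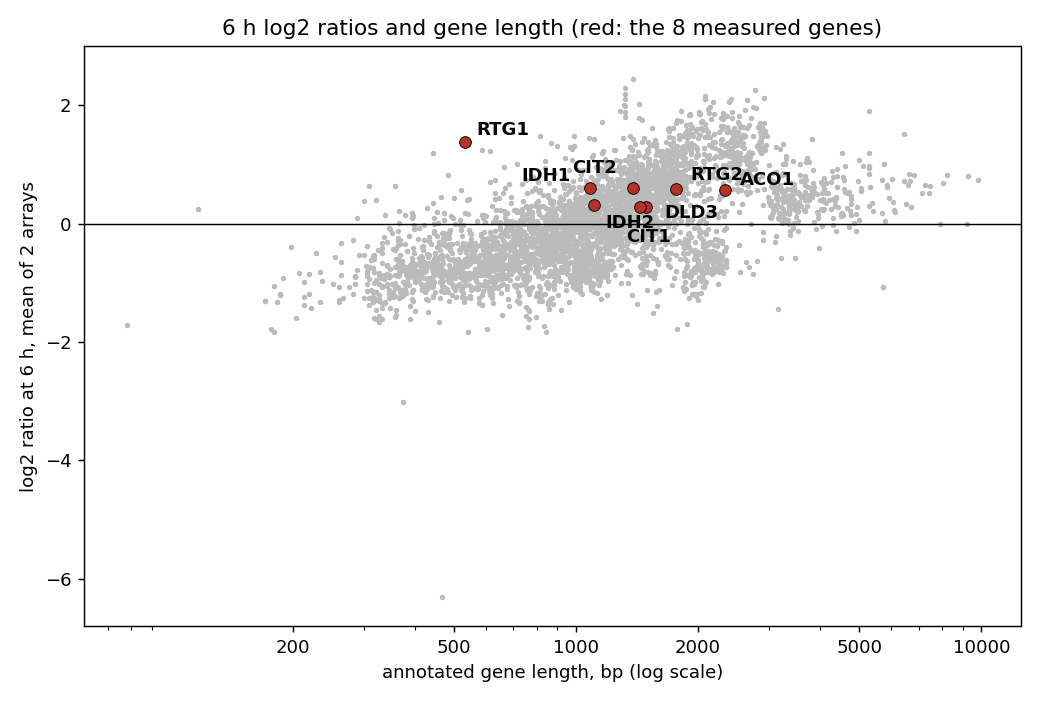
Mean 6 h log2 ratio (vertical axis) against annotated gene length in bp on a log scale (horizontal axis) for all genes with both arrays and a length, in grey, and the 8 measured genes in red. RTG1 at 534 bp and 1.38 is near the top of the genes under 600 bp, whose median is −0.78. YFL067W lies beside it at 528 bp and 1.41, and the other 7 red points lie between 0.27 and 0.61. The lowest grey point is YPI1 at −6.30.

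**Figure D3:**
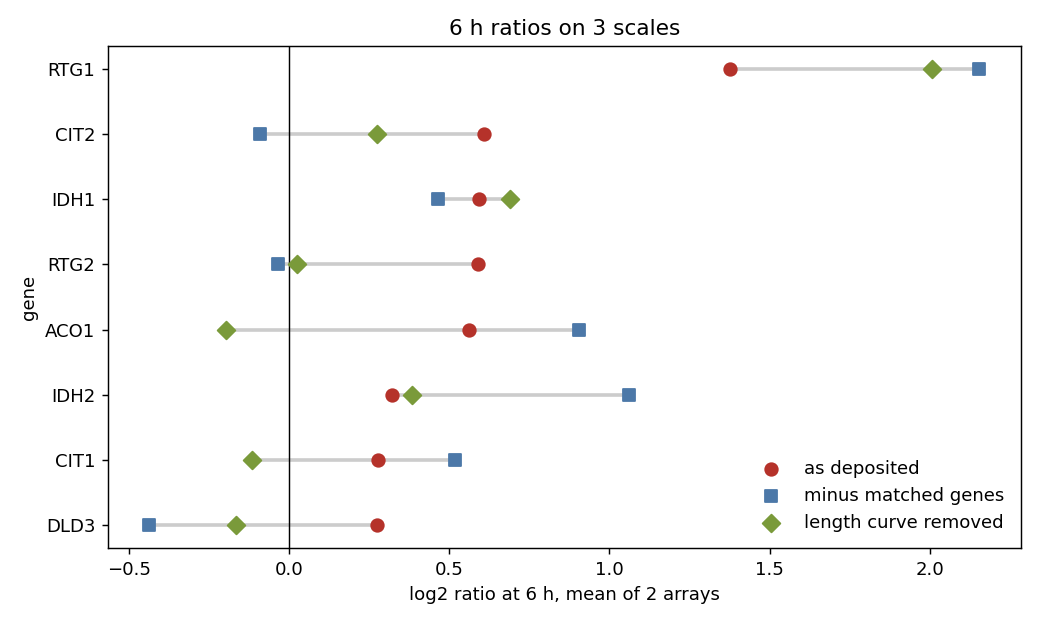
Mean log2 ratio at 6 h (horizontal axis) of each of the 8 genes (vertical axis) as deposited (circles), minus the median of 20 matched genes (squares) and with the length curve removed (diamonds). RTG1, IDH1 and IDH2 stay to the right of 0 on all 3 scales, and DLD3 goes from 0.27 to −0.44 and −0.17.

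Genes that act with the retrograde regulators or next to the target enzymes were taken as 8 lists by function, 63 genes in all. The limma test of the mean log2 ratio over the 3 times called 0 of 38 list genes measured on all 6 arrays, and 0 of them had an unadjusted p under 0.05. It called 0.0295% of genes over the whole table, which was YPI1 (1 of 3391, with 10 at an unadjusted p under 0.05). That test takes the 3 times as units and counts any change between them as error.

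Other regulators of the route were low or high at 6 h without a common direction. They were TORC1 subunits with LST8, the 14-3-3 genes BMH1 and BMH2, the ubiquitin ligase subunit GRR1, URE2 and RAS2. Their median log2 ratio at 6 h was 0.25 over 7 genes, with 0 past 2-fold, 3 above 0 on both arrays and 2 below. KOG1, a TORC1 subunit, was the highest at 0.52 ± 0.20, but the lowest against matched genes at −0.51, where the list median was −0.08. BMH1, whose product holds Mks1, was the lowest at −0.43 ± 0.18, while its paralog BMH2, named after its value was seen, had 0.29 ± 0.14.

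The rest of the TCA cycle spread on both sides of 0 at 6 h. The median at 6 h was 0.22 over 10 genes, with 0 past 2-fold, 5 above 0 on both arrays and 4 below. LPD1, the lipoamide dehydrogenase shared by several dehydrogenase complexes, was highest at 0.89 ± 0.49, and SDH1, the flavoprotein subunit of succinate dehydrogenase, lowest at −0.88 ± 0.20. Against matched genes these were 0.35 and −0.52. The difference between the enzymes and this list was not tested.

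Anaplerotic and glyoxylate enzymes had a median of 0.23 over 7 genes at 6 h, with 0 past 2-fold. MDH2, cytosolic malate dehydrogenase, was highest at 0.75 ± 0.29, and MDH3, the peroxisomal form, lowest at −0.56 ± 0.14. Against matched genes the list median was −0.05, MDH2 was at 1.43 and MDH3 turned to 0.23. Carriers of organic acids and acetyl groups had a median of −0.39 over 6 genes, with 5 below 0 on both arrays. CRC1, the mitochondrial carnitine carrier, was past 2-fold lower at −1.06 ± 0.02, though −0.44 against matched genes.

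Glutamate and glutamine genes, which use 2-oxoglutarate, had a median of 0.58 over 6 genes at 6 h, the highest of the 8 lists as deposited. Of these 5 were above 0 on both arrays and 0 were past 2-fold. Against matched genes the median was 0.07, below those of the HAP complex, peroxisome and other TCA cycle lists. GDH1, the main glutamate dehydrogenase of glucose-grown cells, was highest at 0.85 ± 0.37 and its paralog GDH3 lowest at 0.08 ± 0.17. At 2 and 4 h the list medians were −0.01 and −0.02.

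Peroxisomal and fatty acid oxidation genes had a median of 0.35 over the 4 of 8 measured at 6 h, from CTA1, the peroxisomal catalase, at 0.08 ± 0.37 to FOX2 at 0.93 ± 0.21. DLD2, a mitochondrial paralog of DLD3, was the 1 lactate dehydrogenase measured on both 6 h arrays, and was at −0.69 ± 0.14 where DLD3 was at 0.27. The HAP complex, the other activator of the target enzymes, had a median of 0.20 over 4 genes. HAP4, its regulated activation subunit, was highest at 0.83 ± 0.13, and HAP3, a DNA-binding subunit, lowest at −0.22 on both arrays. Against matched genes the list median was 0.49 and this order turned, with HAP4 lowest at 0.04 and HAP3 at 0.49. At 6 h 0 genes of these 3 lists were past 2-fold.

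**Figure D4:**
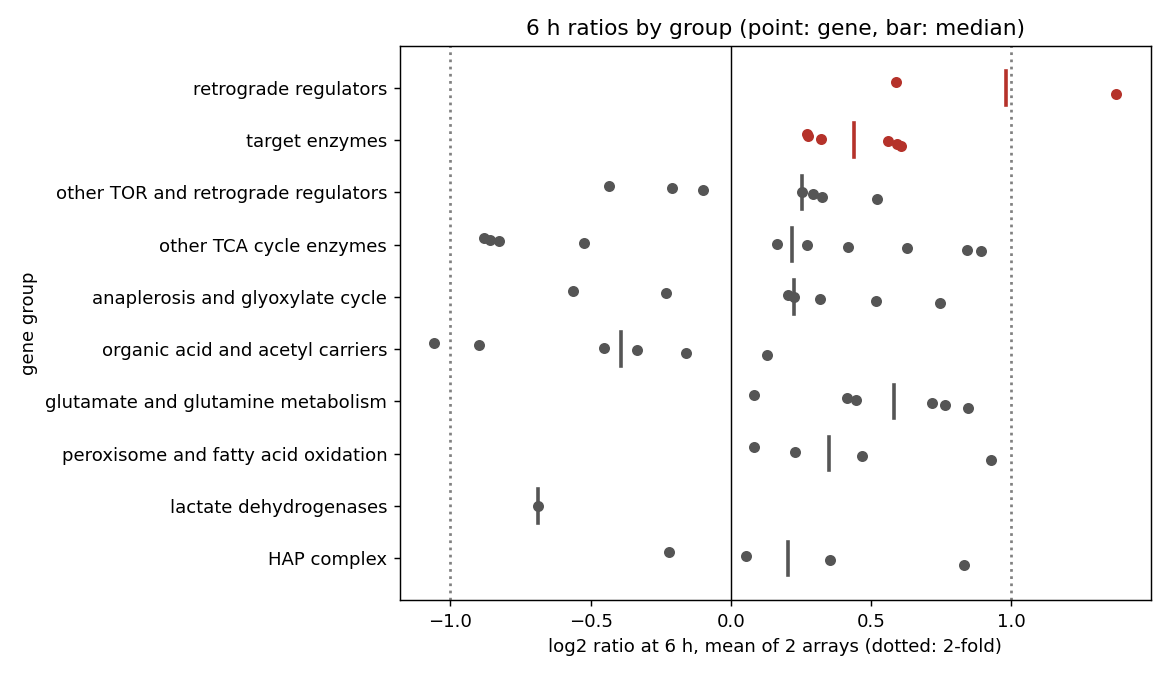
Mean log2 ratio at 6 h (horizontal axis) of each gene measured on both arrays, by group (vertical axis), with the regulators and target enzymes in red and the 8 lists in grey. Bars are group medians and dotted lines mark 2-fold. The target enzymes lie between 0.27 and 0.61 and the other TCA cycle enzymes between −0.88 and 0.89.

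The profile of CIT2 over the 6 arrays was matched most closely outside the group by STP2, YVH1 and SLM5, at Euclidean distances of 0.12, 0.23 and 0.24 in log2 units among 3383 genes. STP2 encodes a transcription factor of amino acid permease genes, YVH1 a phosphatase and SLM5 the mitochondrial asparaginyl-tRNA synthetase. Within the group IDH1 was nearest at 0.41 and RTG1 farthest at 1.40. Relative to matched genes the nearest were SIS1, SYO1 and YGL140C, so the nearest genes differed between the deposited and the matched scale.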

How the data were processed

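RNA of treated and untreated cells was compared on 6 arrays, 2 dye-swapped arrays per time. The deposited values are log2 ratios, 1 per reading frame and array, taken as treated over untreated. The log base is not stated and every fold assumes log2. Per the labels, spots of a diameter below 120 µm, or dimmer than 100 units in Cy3 and Cy5, were left out by the authors. The normalization and the turning of swapped arrays are not given in the sources used here. Replicate 2 of 2 h names Cy3 for both channels in the labels and was taken as the swap.

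Of 6212 identifiers, 5662 matched a RefSeq R64 gene, 24 after a change to upper case, for symbols and lengths. Promoters and proteins were not used here, and genome position only for the chromosome of each gene and the genes beside each member. Arrays of a time were averaged. The comparison with matched genes subtracted, on each array, the median of 20 same-chromosome genes closest in length. The length curve was a lowess fit (statsmodels 0.14.6, span 0.3, 3 robust steps). limma 3.58.1 in R 4.3.3 tested the mean of the 3 times against 0 for the 3391 genes with 6 values. That test was two-sided, and p-values were Benjamini-Hochberg adjusted with a threshold of 0.05. No p-value measures the spread between biological replicates. The steps were tested on simulated data.

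The members, lists and rules were chosen with earlier results of these data known. Named were all members, YPI1, list genes past 2-fold or else the highest and lowest at 6 h, and the 3 genes nearest to CIT2. Further genes are marked in the text as named after their values were seen, or are the nearest to CIT2 on the matched scale. A single gene was left out of its list and is not reported here.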

Additional observations from a re-analysis of the deposited data

Results flagged for a closer look

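For 5 of the enzymes both arrays of one time lay below 0 and both arrays of a later time above 0. The share of all genes that did so at any such times was not counted. The difference between the times was not tested, since each time has 1 RNA pair. From 4 to 6 h the mean log2 ratio went up by 0.87 for CIT2, 0.62 for DLD3, 0.71 for ACO1 and 0.77 for IDH1. With the length curve removed, ACO1 instead went down, from −0.08 to −0.20. From 2 to 6 h it went up by 0.90 for IDH1 and 0.54 for IDH2. A turn from below 0 on both arrays of 4 h to above 0 on both of 6 h was seen in 4 of the 8 genes with values, and in 11.6% of all 4021 genes.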

How the results depend on the processing

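With no biological replicate at a time, the ratios of 2 and 4 h, at which the dye swaps correlate below 0, are the least secure. Centring each array on its median kept the sign of all 27 values of the 10 genes. The comparison with matched genes kept 24 of 27 signs (5 of 8 at 6 h), and the length curve 20 of 27 (5 of 8 at 6 h). Turning the Cy3 arrays, which would put YPI1 above 0 on those arrays, kept 8 of 19 signs at 2 and 4 h. Single arrays kept 23 and 21 of 27, and all 8 at 6 h. The median of the group was 0.13 at 2 h and 0.0145 at 4 h with the Cy3 arrays turned, and −0.11 at 4 h with the length curve removed. At 6 h it was 0.49 against matched genes, 0.15 with the length curve removed, 0.62 with arrays centred, and 0.48 to 0.49 on single arrays. The number of the 10 genes past 2-fold at 6 h was 1, against 2 relative to matched genes, 4 at a 1.5-fold limit and 1 to 2 on single arrays, and at 2 and 4 h it was 0 under each alternative.

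Over all genes the 2-fold rule took 2, 3 and 744 genes at the successive times. A 1.5-fold limit gave 6, 9 and 2045, and single arrays 17 to 29, 4 to 5 and 827 to 966. Turning the Cy3 array left 1 at 4 h, and 6 h had 220 against matched genes and 366 with the length curve removed. The limma test of the mean called 1 gene, and 2 with the 6 arrays as units, 2 with the replicate block in that fit, 2 without 2 h, 2 without 4 h and 11 without 6 h. It called 0 relative to matched genes (38 at an unadjusted p under 0.05). With the dye as a term, added after seeing the data, it called 2. Same-numbered arrays deviated together between 2 and 4 h (r = 0.57) and oppositely from 6 h (−0.71 and −0.54), where the dyes of the numbers are exchanged, so the numbers do not pair the samples. No promoter was searched, so the planned motif counts were not run.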
